A study of Mus musculus with 12 samples.

Results

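The 9 genes Mdc1, Brca1, Brca2, Fancd2, Fanci, Blm, Exo1, Rad54l and Atm, which serve the repair of DNA cut through both strands or cross-linked between strands, were followed through 12 gut epithelial RNA libraries. They were chosen by name, with earlier results of these data known, and all 9 were found among the 14244 gene rows of the deposited table. The libraries came from gut epithelial cells of 5 wild type (WT) mice and 7 heterozygous mice, 1 library per mouse. All were C57BL/6 male littermates, 8 weeks old. The heterozygous animals, CHD8+/- in the labels and Chd8L+/- in the study, lack several exons of 1 copy of Chd8, a chromatin remodeler linked to autism, and they carry the deletion in every tissue and not in the gut alone. They descend from Chd8L+/- fathers and WT mothers. The comparison asks how the RNA of these repair genes differed between Chd8L+/- and WT gut epithelial cells.

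A break through both strands of DNA is sensed by the kinase ATM, which marks the chromatin around it, and MDC1 binds that mark and holds further repair proteins there. BRCA1, EXO1 and BLM act on the cut ends so that single-stranded DNA is exposed, BRCA2 prepares it for pairing with an intact copy, and RAD54 and BLM help the strand exchange with the sister copy and its resolution. FANCD2 and FANCI form the pair of proteins that the Fanconi anaemia pathway tags with ubiquitin at cross-links. In the intestine, dividing cells sit in the crypts while the villi hold cells that no longer divide, and exchange with a sister copy needs a replicated chromosome.

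The genes lie on 8 chromosomes of GRCm38 (mm10). Mdc1 is on the plus strand of chromosome 17 from 35841515 to 35859670, and Brca1 is on the minus strand of chromosome 11 from 101488764 to 101551955. Brca2 is on the plus strand of chromosome 5 from 150522630 to 150570329, Exo1 on the plus strand of chromosome 1 from 175880581 to 175913489, and Fancd2 on the plus strand of chromosome 6 from 113531682 to 113597017. Fanci, on the plus strand from 79391929 to 79450264, and Blm, on the minus strand from 80454733 to 80535119, share chromosome 7. Rad54l is on the minus strand of chromosome 4 from 116094264 to 116123690 and Atm on the minus strand of chromosome 9 from 53439149 to 53536740. Exons of Fanci overlap exons of Polg on the opposite strand over 921 bases, those of Rad54l overlap Lrrc41 over 1184 bases, those of Fancd2 overlap Fancd2os over 257 bases, and those of Brca2 overlap Gm42529 over 41 bases. Whether the authors' counting used strand is not given in the sources used here, so reads in these stretches may belong to either gene.

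Promoter windows of RefSeq (GRCm38.p6), from 250 bases before to 50 bases after the start of transcription, were at hand for 7 of the 9 genes, all but Fancd2 and Exo1. They were searched on both strands for letters bound by known transcription factors. The letters TTTCCCGC, TTTGGCGC or TTTCGCGC, bound by E2F factors, were in 2 of 7 windows (Mdc1 and Brca2), against 1.91% of 27025 promoters. CCAAT, bound by NF-Y, was in 5 of 7 windows against 37.9% of promoters, GGGCGG, bound by Sp1, in 5 of 7 against 35.9%, and GCGCATGC, the core bound by NRF1, in 2 of 7 (Fanci and Atm) against 2.80%. The cell cycle homology letters TTTGAA were in 0 of 7 windows against 18.1% of promoters. A match is a description of these letters and not a shown binding site.

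The stretches before the start of the 2 genes with E2F letters, and of 2 genes with CCAAT but no E2F letters, are printed 5′ to 3′ on the strand of the gene, with E2F letters and CCAAT in capitals. In Mdc1 the E2F letters open 16 bases before the start and CCAAT 75 bases before it. In Brca2 the E2F letters lie on the opposite strand, 168 bases before the start. CCAAT opens 86 bases before the start of Brca1 and 50 bases before that of Rad54l.
Mdc1, chr17:35841348-35841497, plus strand: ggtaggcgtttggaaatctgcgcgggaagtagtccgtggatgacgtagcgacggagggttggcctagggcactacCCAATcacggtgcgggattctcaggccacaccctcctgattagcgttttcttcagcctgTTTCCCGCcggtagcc
Brca2, chr5:150522371-150522620, plus strand: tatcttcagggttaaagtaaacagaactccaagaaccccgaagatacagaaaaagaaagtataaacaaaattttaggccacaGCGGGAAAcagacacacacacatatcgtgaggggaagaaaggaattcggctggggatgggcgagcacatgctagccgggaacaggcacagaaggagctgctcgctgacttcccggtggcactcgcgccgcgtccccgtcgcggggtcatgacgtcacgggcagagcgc
Brca1, chr11:101551956-101552105, minus strand: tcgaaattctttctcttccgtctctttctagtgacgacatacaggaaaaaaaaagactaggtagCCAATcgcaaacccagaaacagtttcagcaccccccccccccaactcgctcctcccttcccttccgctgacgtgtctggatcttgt
Rad54l, chr4:116123691-116123840, minus strand: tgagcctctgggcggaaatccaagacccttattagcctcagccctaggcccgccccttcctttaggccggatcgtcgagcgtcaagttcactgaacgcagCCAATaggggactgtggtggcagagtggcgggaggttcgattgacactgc

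Values are normalized counts, that is, the reads on a gene scaled by the size factor of its library, and each library held from 15691662 to 20761315 reads. A value written with ± is a mean and SD over n = 5 WT or n = 7 Chd8L+/- libraries. The genotype test was limma over 12808 genes on a log2 scale with a pseudocount of 1, with Benjamini-Hochberg adjustment and a threshold of 0.05, and a log2 fold change (SE, its standard error) is the Chd8L+/- mean minus the WT mean on that scale. Single genes were tested as well by exact permutation over the 12 libraries (two-sided, smallest possible p 0.00253). Epithelial markers were abundant in every library (Epcam at 27667 or more). On the first principal component (39.7% of the variance) WT replicate 2 stood apart from its group, at 41.0 within the Chd8L+/- range of 0.26 to 42.7, while the other 4 WT libraries lay between -67.5 and -26.2. Results are therefore given with and without WT replicate 2. Chd8 itself was at 953 ± 85.5 in WT and at 1297 ± 123 in Chd8L+/- mice (limma log2 fold change 0.44, adjusted p = 0.121; DESeq2 adjusted p = 0.00378; exact permutation p = 0.00253). Chd8 was higher in all 7 Chd8L+/- libraries (1084 or more) than in any WT library, WT replicate 2 included, which was the highest of them at 1050. The counts cover the whole gene, so the deleted exons could not be read separately and the labels could not be checked from them.

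All 9 repair genes had a higher mean in Chd8L+/- than in WT libraries, with log2 fold changes from 0.89 (Exo1) to 1.73 (Fanci) and a median of 1.14, against a median of 0.014 over all genes tested. In 8 of 9 the log2 fold change was 1 or more, which held for 2.94% of all genes tested. By limma none of the 9 passed the adjusted threshold with all 12 libraries (0.0234% of genes did, in either direction), and the adjusted p was between 0.121 and 0.191. All 9 were at an unadjusted limma p of 0.05 or less in the higher direction, as were 12.5% of all genes. Every one of the 9 passed the filter on low values, the lowest being Fanci with 4 reads in WT replicate 4. In bulk RNA, more cells that express these genes and more RNA per cell cannot be told apart.

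Atm, the kinase at the head of the response, was at 150.2, 284, 68.6, 67.4 and 128 normalized counts in WT replicates 1 to 5. The Atm values of the 7 Chd8L+/- libraries ran from 211 to 320.3 with a median of 278. WT replicate 2 alone of the WT libraries reached the Chd8L+/- range, and 2 Chd8L+/- libraries lay above it. Atm averaged 139.6 ± 88.6 in WT against 269 ± 37.2, or 1.14 on the log2 scale (SE 0.30; limma unadjusted p = 0.00182, adjusted p = 0.121; exact permutation p = 0.0152).

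Mdc1, the scaffold that binds chromatin marked by ATM, had the highest normalized counts of the 9. Its WT values were 275, 409.9, 204, 182 and 192 in replicates 1 to 5. The Mdc1 values in Chd8L+/- libraries had a lowest of 399, a median of 487 and a highest of 603. Of the 7 Chd8L+/- libraries, 6 lay above every WT library, and the lowest of them, replicate 7, lay below WT replicate 2 only. Mdc1 averaged 253 ± 95.2 in WT against 489.7 ± 79.7, or 1.01 on the log2 scale (SE 0.20; limma unadjusted p = 0.000149, adjusted p = 0.121; exact permutation p = 0.00505). By unadjusted limma p it ranked 14 of all genes tested, ahead of the other 8 repair genes, although 7 of these had a larger fold change.

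Brca1, which is recruited to breaks and favours repair by recombination, was at 80.9, 227, 49.4, 55.5 and 104 normalized counts in WT replicates 1 to 5. The Brca1 values of Chd8L+/- libraries were close together, from 171 to 246 around a median of 195. Only 1 of them lay above WT replicate 2, and all 7 lay above the other 4 WT libraries. The Brca1 means of 103 ± 72.6 and 198 ± 25.9 gave a log2 fold change of 1.15 (SE 0.30; limma adjusted p = 0.121; exact permutation p = 0.0177).

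Brca2, which acts on single-stranded DNA in recombination, was at 74.7, 161, 26.2, 28.8 and 20.1 normalized counts in WT replicates 1 to 5. The Brca2 values of Chd8L+/- libraries ran from 105 to 187 with a median of 126. As for Brca1, 1 Chd8L+/- library lay above WT replicate 2 and all 7 lay above the other WT libraries. That 1 library was Chd8L+/- replicate 6 for Brca2 and Chd8L+/- replicate 3 for Brca1. Brca2 averaged 62.2 ± 59.5 against 132 ± 28.1, which gave a log2 fold change of 1.50 (SE 0.42; limma adjusted p = 0.121; exact permutation p = 0.0202), the second largest of the 9.

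Exo1, a nuclease that chews back the ends of a break, differed least. WT replicates 1 to 5 held 65.8, 168, 26.2, 27.8 and 74.0 normalized counts of Exo1. The Exo1 values of Chd8L+/- libraries ran from 67.7 to 143 with a median of 106. WT replicate 2 was the highest of all 12 libraries, and Chd8L+/- replicate 7 lay below WT replicate 5 as well, so that Exo1 overlapped between genotypes also without WT replicate 2. The Exo1 means of 72.4 ± 57.9 and 110.1 ± 29.6 gave a log2 fold change of 0.89 (SE 0.40; limma unadjusted p = 0.0424, adjusted p = 0.191; exact permutation p = 0.0960), the only exact p of the 9 above 0.05. The exact p-values of the 9 are unadjusted, and the share of all genes at 0.05 or less by that test was not worked out.

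Blm, the helicase lost in Bloom syndrome, was at 66.7, 124, 35.3, 27.8 and 51.4 normalized counts in WT replicates 1 to 5 and at 82.1 to 179 in Chd8L+/- libraries, with a median of 109.7. Of the 7 Chd8L+/- libraries, 3 had more Blm than WT replicate 2, and all 7 had more than the other WT libraries. The Blm means of 61.0 ± 38.2 and 124 ± 36.8 gave a log2 fold change of 1.16 (SE 0.33; limma adjusted p = 0.121; exact permutation p = 0.0152). Rad54l, which encodes the RAD54 motor protein of strand exchange, was at 103, 223, 39.3, 41.7 and 82.8 in WT replicates 1 to 5 and at 115 to 246 in Chd8L+/- libraries, with a median of 157. Rad54l overlapped between genotypes through WT replicate 2 alone, which 2 Chd8L+/- libraries exceeded. Its means of 98.0 ± 75.1 and 176 ± 54.8 gave a log2 fold change of 1.07 (SE 0.38; limma adjusted p = 0.133; exact permutation p = 0.0404).

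Fancd2, a partner in the Fanconi pair, was at 45.3, 116, 28.2, 26.8 and 60.2 normalized counts in WT replicates 1 to 5. The Fancd2 values of Chd8L+/- libraries ran from 63.2 to 187 with a median of 99.3, and 3 of them lay above WT replicate 2. The lowest, Chd8L+/- replicate 7, lay just above WT replicate 5. Fancd2 averaged 55.2 ± 36.5 against 111 ± 43.3, or 1.12 on the log2 scale (SE 0.36; limma adjusted p = 0.125; exact permutation p = 0.0253).

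Fanci, the partner of Fancd2, had the fewest reads and the largest fold change of the 9. Its WT values were 31.1, 57.8, 6.05, 3.97 and 37.6 normalized counts in replicates 1 to 5, the lowest pair resting on 6 and 4 reads. The Fanci values of Chd8L+/- libraries ran from 44.4 to 94.3 with a median of 55.1, and 3 lay above WT replicate 2. The Fanci means of 27.3 ± 22.6 and 65.2 ± 21.1 gave a log2 fold change of 1.73 (SE 0.55; limma adjusted p = 0.124; exact permutation p = 0.0152). On the scale of the means this was 2.39-fold, against 1.52-fold for Exo1, the lowest of the 9.

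**Figure D1:**
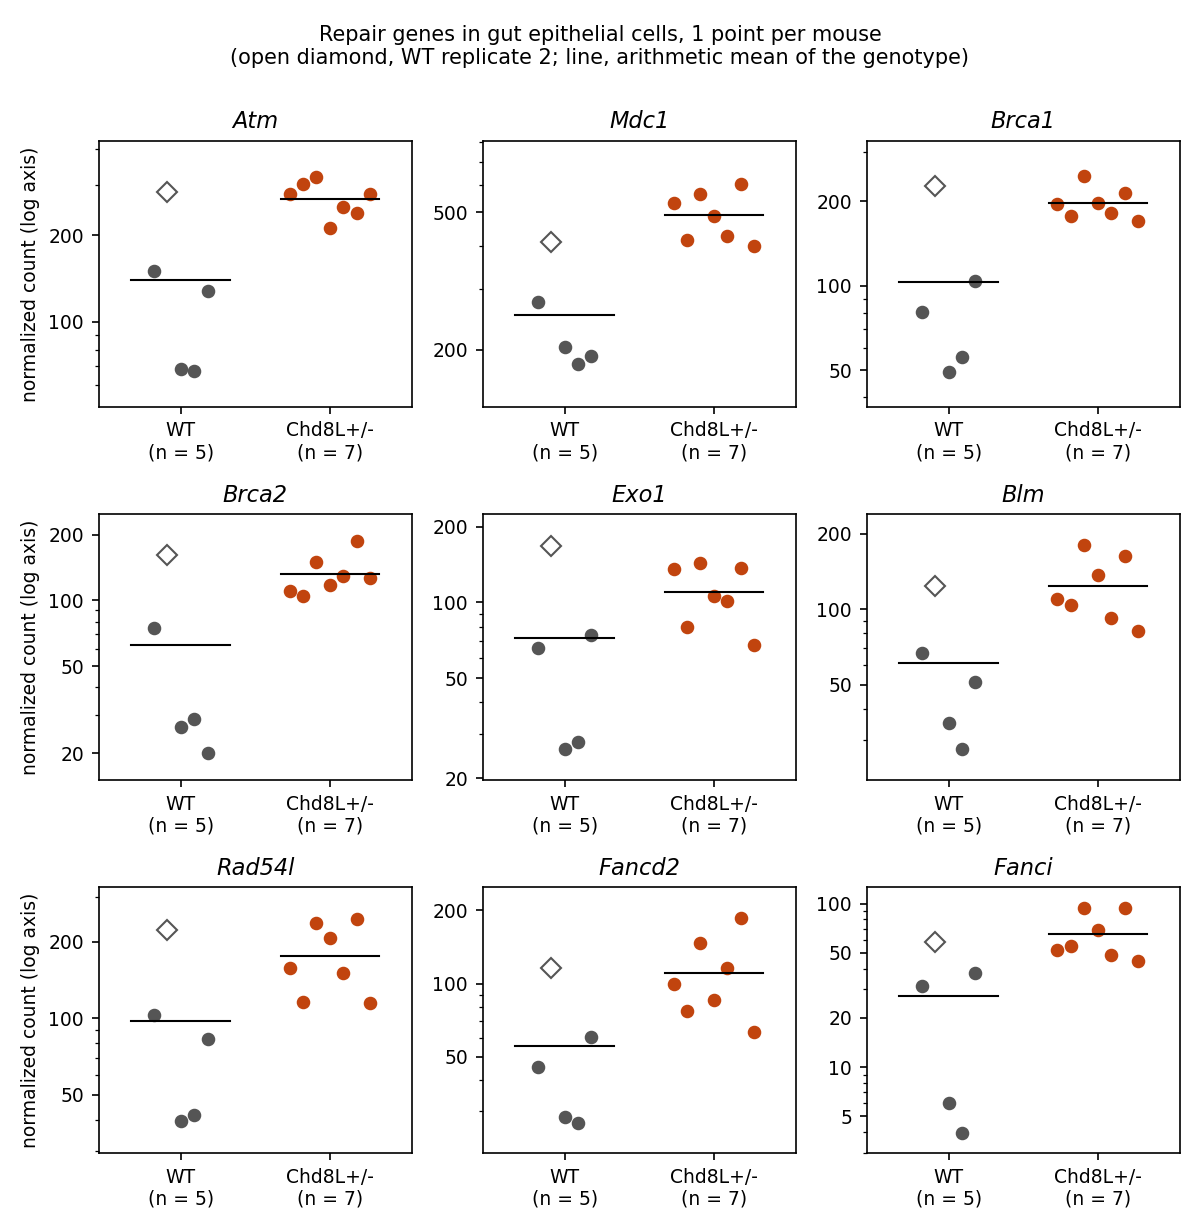
Normalized counts (log axis) of the 9 repair genes in each library, grey for the 5 WT and orange for the 7 Chd8L+/- mice, with the open diamond for WT replicate 2 and a line at the arithmetic mean of each genotype. In every panel the open diamond is the highest WT point and lies within or above the orange points, while the other 4 WT points lie below all orange points except in Exo1.

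WT replicate 2 was the highest WT library in 9 of 9 repair genes, which held for 33.9% of all genes tested. Without it, all 9 rose in Chd8L+/- libraries past the adjusted threshold, as did 14.0% of all genes tested. The log2 fold changes were then between 1.20 (Mdc1) and 2.14 (Fanci), and the adjusted p from limma was between 0.00256 (Mdc1 and Brca1) and 0.0126 (Exo1). Brca2 then had a log2 fold change of 1.96 (adjusted p = 0.00273), Atm of 1.45 (adjusted p = 0.00273), Blm of 1.46 (adjusted p = 0.00430) and Rad54l of 1.44 (adjusted p = 0.00631), all from limma. Over every alternative tried the adjusted p of the 9 was between 2.32e-09 (Mdc1, DESeq2 without WT replicate 2) and 0.456 (Exo1). The groups no longer overlapped in 8 of 9 genes, all but Exo1, against 6.69% of all genes with Chd8L+/- libraries higher. Leaving out any other library called 0 of 9. WT replicate 2 was singled out from these same values. Leaving out the highest WT library of a gene can only raise its fold change and narrow its overlap, so these results are a description.

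DESeq2 on the recovered reads of all 12 libraries called 3 of 9 as higher, Mdc1 (adjusted p = 0.00279), Atm (adjusted p = 0.0430) and Blm (adjusted p = 0.0484), where 1.84% of genes with an adjusted p were called in that direction. Brca1 just missed (adjusted p = 0.0541), and the other 5 had an adjusted p of 0.0799 or more. edgeR called 0 of 9 (adjusted p from 0.107 to 0.375). By DESeq2 the log2 fold changes of all 9 were smaller than by limma, from 0.61 (Exo1) to 1.26 (Fanci).

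**Figure D2:**
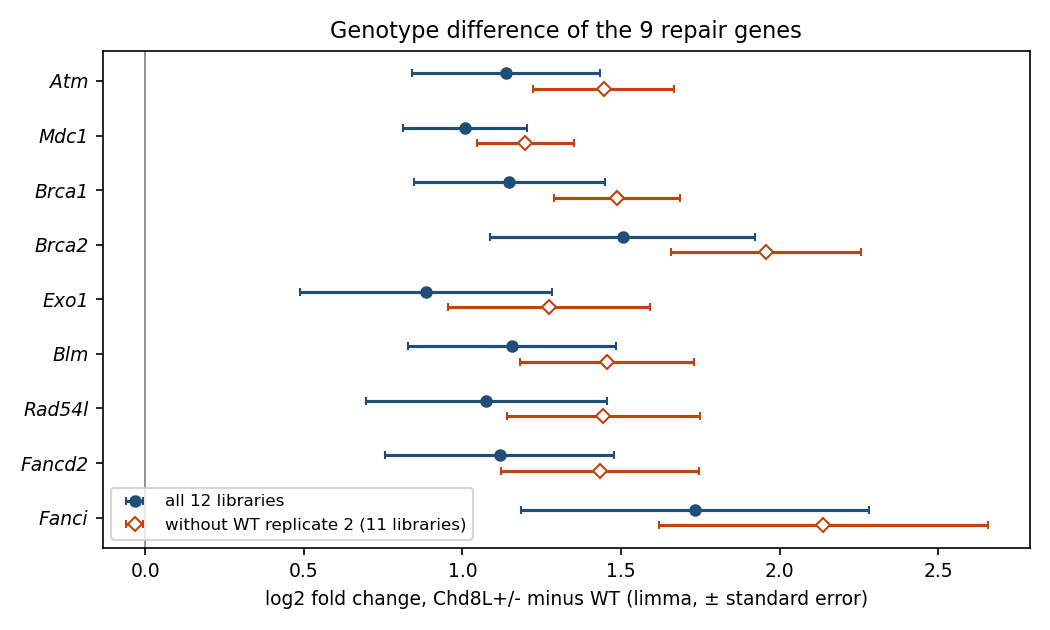
Log2 fold change of each repair gene, Chd8L+/- minus WT, with its standard error from limma, as filled circles for all 12 libraries and open diamonds without WT replicate 2. All points lie to the right of 0, from 0.89 (Exo1, all libraries) to 2.14 (Fanci, without WT replicate 2), and each open diamond lies to the right of its circle with a shorter error bar.

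The library names open with a letter, A to D, whose meaning no label gives. A number follows the letter, and some of these numbers occur in both genotypes. No label gives the meaning of that number either. It was not used as a block, and whether it pairs the mice was not tested. Within letter A (2 WT and 2 Chd8L+/- libraries, WT replicate 2 among them) the differences in mean log2 value of the 9 genes had a median of 0.63, from 0.22 (Exo1) to 0.91 (Fanci). Within letter B (2 WT and 1 Chd8L+/- libraries) the median was 1.35 and within letter C (1 WT and 3 Chd8L+/- libraries) it was 1.97, up to 3.22 in Fanci. All 9 differences were above 0 in each of the 3 letters, and the median over all genes tested was between -0.022 and 0.028. Mdc1 had every Chd8L+/- library above every WT library within each letter, with differences of 0.64, 1.18 and 1.32. The share of all genes with such separation, or with differences above 0 in each letter, was not worked out. These results are therefore a description of few libraries per letter. Letter D held 1 Chd8L+/- library only. With the letter as a block, limma called 2 of 9, Mdc1 (adjusted p = 0.0434) and Blm (adjusted p = 0.0457), where 1.37% of all genes were called as higher.

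The other genes of the break and Fanconi pathways leaned the same way with smaller medians. For comparison, 51.4% of all genes tested had a positive log2 fold change. At an unadjusted limma p of 0.05 or less were 12.5% of all genes in the higher and 11.8% in the lower direction. Of 20 other genes for sensing and signalling of breaks, 18 had a positive log2 fold change and 11 were at an unadjusted limma p of 0.05 or less, all higher, with a median of 0.41. Those with the smallest p were Clspn, an adaptor of the checkpoint kinase CHK1 (96.2 ± 68.8 in WT and 208 ± 49.0 in Chd8L+/- libraries, log2 fold change 1.30), Atr, the kinase that answers to stalled forks (1.16), and Rad50, of the complex that first binds broken ends (0.60). Of 30 tested genes of homologous recombination (31 listed), 27 were positive, with 13 at that p in the higher and 1 in the lower direction and a median of 0.41. Gen1, a resolvase of crossed strands, had a log2 fold change of 1.13, Brip1, a helicase partner of BRCA1, of 0.80, and Eme1, a subunit of another resolvase, of 0.93. With all libraries, limma called none of these 6 genes past the adjusted threshold. DESeq2 called 3 of them, Clspn (adjusted p = 0.0273), Brip1 (adjusted p = 0.0430) and Gen1 (adjusted p = 0.0436). With the letter block, limma called 4, Clspn and Rad50 (adjusted p = 0.0434 for each), Atr (adjusted p = 0.0470) and Brip1 (adjusted p = 0.0494).

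Of 21 other Fanconi anaemia genes, 16 were positive and 7 were at an unadjusted p of 0.05 or less in the higher direction, against 2 in the lower, with a median of 0.26. The shares over all genes tested were 51.4% positive, 12.5% higher and 11.8% lower at that p. The 2 lower genes were near that last share. Fancm, which binds the DNA at a cross-link, had a log2 fold change of 1.09, Fanca, a subunit of the core complex, of 1.19, and Usp1, which removes ubiquitin from FANCD2 and FANCI, of 0.44. Of these 3, Fancm was called by DESeq2 with all libraries (adjusted p = 0.0462). Fancd2 and Fanci, the targets of that complex, had log2 fold changes of 1.12 and 1.73, beside -0.40 to 1.19 for the 21. Without WT replicate 2, the calls past the adjusted threshold were 11 higher and 0 lower among the 20 signalling genes, 15 and 0 among the 30 recombination genes, and 7 and 1 among the 21 Fanconi genes, against 14.0% higher and 13.6% lower of all genes tested.

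End joining had 11 of 14 genes positive and a median of 0.29, led by Polq, the polymerase of theta end joining (46.4 ± 38.1 and 95.8 ± 24.0 normalized counts, log2 fold change 1.31), with Parp1, a sensor of nicks and breaks, at 0.82 and Xrcc6, which encodes Ku70, at 0.55. Base excision repair had 11 of 17 tested genes positive (18 listed) and a median of 0.18, with the glycosylase Neil3 at 1.15, the endonuclease Apex1 at 0.89 and the flap nuclease Fen1 at 0.95. Nucleotide excision repair had 15 of 21 positive and a median of 0.16, with no gene above 0.52, the value of Gtf2h2, a subunit of TFIIH, followed by Uvssa, of transcription-coupled repair, at 0.49 and Ercc2, a TFIIH helicase, at 0.44. Mismatch repair, which works on newly copied DNA, had 6 of 7 positive and a median of 0.57, with Pms2 at 0.57 and Pms1 at 0.60. At an unadjusted limma p of 0.05 or less in the higher direction there were 5 of 14, 3 of 17, 5 of 21 and 4 of 7 genes in these lists, against 12.5% of all genes, and 0 genes in the lower direction, against 11.8% of all genes. For base excision repair this was near the share over all genes. A positive log2 fold change was found in 51.4% of all genes tested. The difference between lists was not tested.

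**Figure D3:**
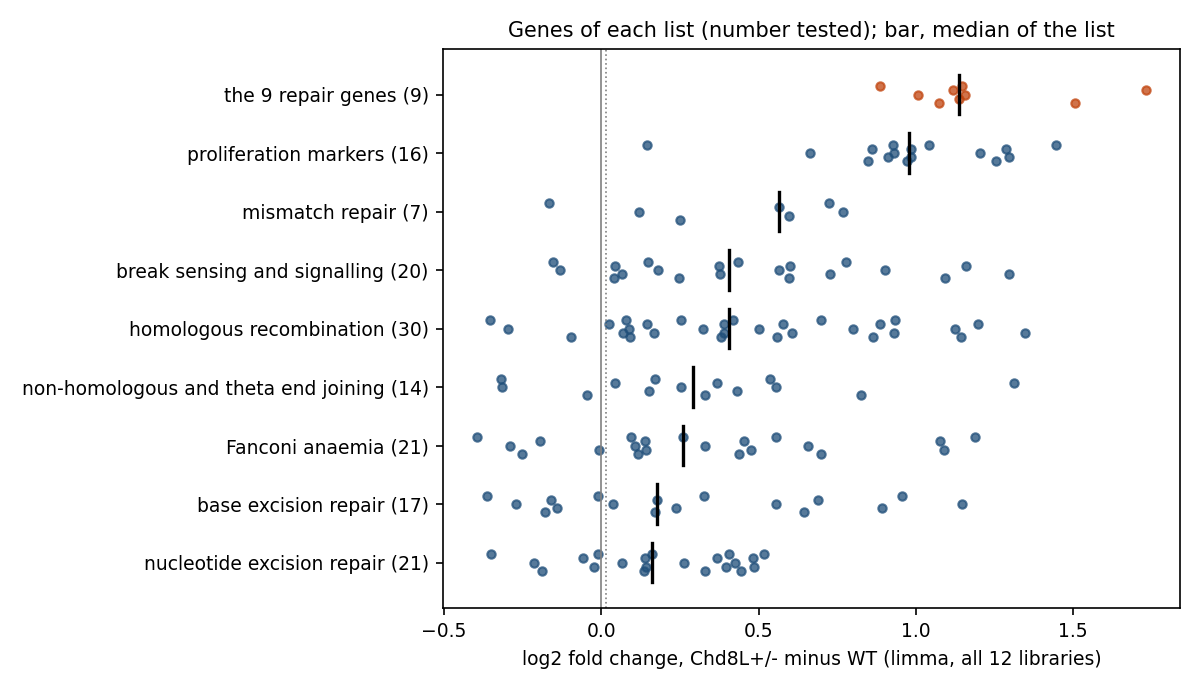
Log2 fold change, Chd8L+/- minus WT, of each tested gene (points) in the 9 repair genes, in 7 lists of other repair genes and in proliferation markers, with a bar at the median of each list, a solid line at 0 and a dotted line at the median of all genes tested, 0.014. The 9 repair genes (median 1.14) and the proliferation markers (median 0.98) lie furthest to the right, and nucleotide excision repair (median 0.16) lies closest to 0.

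Markers of dividing cells were read beside the repair genes. All 16 proliferation markers had a positive log2 fold change, 15 of them at an unadjusted limma p of 0.05 or less, with a median of 0.98. Among all genes tested, 51.4% were positive and 12.5% were at that p in the higher direction. Mki67, a marker of cycling cells, was at 1226 ± 1107 normalized counts in WT and 2626 ± 610 in Chd8L+/- libraries (log2 fold change 1.45, limma adjusted p = 0.121). Pcna, the replication clamp, was the exception at 1536 ± 414 and 1667 ± 249.9 (log2 fold change 0.14, limma adjusted p = 0.594). The summed level of the 16 markers ran from 4045 to 17999 in WT, the highest being WT replicate 2, and from 9989 to 18969 in Chd8L+/- libraries.

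Library by library, the mean log2 value of the 9 repair genes was 6.37, 7.44, 5.24, 5.17 and 6.14 in WT replicates 1 to 5, beside 8.88, 9.84, 7.51, 7.65 and 8.45 for the proliferation markers. In Chd8L+/- libraries it was between 6.89 and 7.67, beside 8.92 to 9.95. WT replicate 2 thus had both means inside the Chd8L+/- ranges, and the other 4 WT libraries had both below them. The repair mean minus the proliferation mean was -2.39 ± 0.10 in WT and -2.18 ± 0.11 in Chd8L+/- libraries, from -2.51 to -2.26 and from -2.37 to -2.03. The repair mean averaged 6.07 ± 0.93 in WT and 7.27 ± 0.30 in Chd8L+/- libraries, and the proliferation mean 8.46 ± 0.95 and 9.45 ± 0.36. The part of dividing cells in the repair gene difference was not tested.

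Within the 7 Chd8L+/- libraries, 7 of the 9 repair genes were correlated with the proliferation mean past the threshold, and Brca2 and Atm were not. The share of all genes that would pass this test was not worked out, so the count cannot be read as particular to the repair genes. Pearson's r was 0.96 for Rad54l (exact permutation p = 0.000198, adjusted over 9 genes p = 0.00179; Spearman's rho 1, adjusted p = 0.00357) and 0.96 for Blm (exact permutation, adjusted p = 0.00476; rho 0.93, adjusted p = 0.0121). It was 0.95 for Fanci, 0.91 for Mdc1, 0.87 for Brca1, 0.85 for Fancd2 and 0.84 for Exo1, with exact permutation p adjusted over the 9 genes from 0.00476 to 0.0298 (rho from 0.86 to 0.96, adjusted p from 0.00833 to 0.0306). Brca2 had r = 0.69 and rho = 0.61 (exact permutation, adjusted p = 0.0917 and 0.188). Atm had r = -0.23 and rho = -0.32 (exact permutation p = 0.613 and 0.498). Without the 2 libraries farthest from the median of the proliferation mean, r was 0.96 for Rad54l, 0.97 for Blm, 0.94 for Fanci, 0.91 for Brca1, 0.79 for Mdc1, 0.71 for Brca2, 0.66 for Exo1, 0.55 for Fancd2 and 0.018 for Atm, so that the relation of Fancd2 and of Exo1 rested in part on those libraries. In the WT libraries, Atm and the proliferation mean were both highest in replicate 2 (284 normalized counts and 9.84). Both were lowest in replicates 3 (68.6 and 7.51) and 4 (67.4 and 7.65). Across the Chd8L+/- libraries Atm ran from 211 to 320, Brca1 from 171 to 246 and Mdc1 from 399 to 603. The difference between Atm and the other genes in these correlations was not tested.

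**Figure D4:**
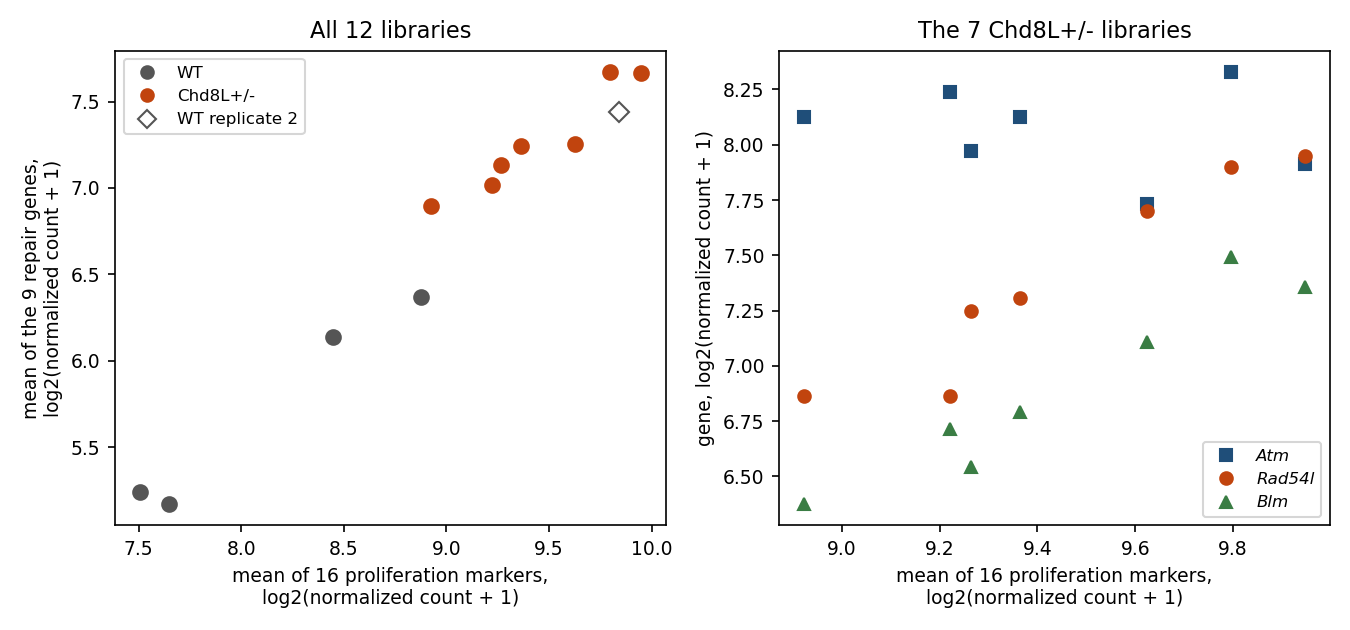
Left, mean log2(normalized count + 1) of the 9 repair genes against that of 16 proliferation markers, 1 point per library, with the open diamond for WT replicate 2. Right, Atm, Rad54l and Blm against the same marker mean in the 7 Chd8L+/- libraries. On the left WT replicate 2 lies among the orange Chd8L+/- points. On the right, where WT libraries are not drawn, Rad54l and Blm climb from left to right (r = 0.96 for each) while Atm does not (r = -0.23).

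The repair genes were also compared with each other. Over the 36 pairs in the 7 Chd8L+/- libraries, Pearson's r was between -0.30 and 0.98 with a median of 0.79. By exact permutation test of r adjusted over the 36, 8 pairs passed the threshold. No pair with Brca2, Fancd2 or Atm passed, the smallest adjusted p by that test being 0.0571, 0.0571 and 0.629. By exact permutation test of Spearman's rho, adjusted in the same way, 13 pairs passed. Mdc1 and Fancd2 were among them (rho = 0.89, adjusted p = 0.0341), and no pair with Brca2 or Atm was. The share among pairs of other genes was not worked out. Fanci and Blm were the closest pair (r = 0.98, rho = 0.96, exact permutation, adjusted p = 0.0107), and the 8 pairs that hold Atm had a median of -0.055, from -0.30 (with Rad54l) to 0.17 (with Brca1). The medians of the other 8 genes over their own pairs were between 0.64 (Brca2) and 0.86 (Rad54l). Chd8L+/- replicates 3 and 6 were the highest libraries as a whole, in the top 3 of all 12 libraries for 9 and 8 of the genes, and Atm was the gene in which replicate 6 was not. WT replicates 1, 3 and 4 were among the lowest 4 libraries in all 9 genes and WT replicate 5 in 8 of them.

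The genes whose profile was most like the mean profile of the 9, among 10675 other genes with a mean of at least 50, were found by the mean Pearson correlation with the 9 over all 12 libraries, as a description only, since WT replicate 2 and genotype shape every such profile. They were Kif11, a mitotic motor, Pole, the leading strand polymerase, Top2a, a topoisomerase of dividing cells, Cluh, which binds RNAs for mitochondrial proteins, Tmpo, a nuclear lamina protein, Cse1l, a nuclear export factor, Topbp1, an activator of ATR, Ccna2, a cyclin, Mki67 and E2f8, a repressor of the E2F family. The means of their correlations were between 0.946 and 0.951, and their log2 fold changes between 0.77 (Cse1l) and 1.45 (Mki67).

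Per kb of the longest coding transcript, Mdc1 was the highest of the 9 in both genotypes, at 34.4 ± 13.0 normalized counts per kb in WT and 66.8 ± 10.9 in Chd8L+/- libraries. In Chd8L+/- libraries Rad54l followed at 58.1 ± 18.1, then Brca1 at 30.1 ± 3.95, Atm at 27.4 ± 3.79, Blm at 26.0 ± 7.71, Fancd2 at 20.1 ± 7.86, Exo1 at 14.1 ± 3.80, Fanci at 14.0 ± 4.55 and Brca2 at 12.3 ± 2.62. Of the neighbours in this order, Rad54l and Brca1 alone had ranges that did not overlap. In WT the 9 genes had the same order, down to Fanci at 5.88 ± 4.87 and Brca2 at 5.80 ± 5.55, and the ranges of all neighbours overlapped.

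Markers of other cells were read beside these results, where 51.4% of all genes tested had a positive log2 fold change. Crypt stem cell markers had 7 of 8 genes positive and a median log2 fold change of 0.46. Their summed level was 6715 to 19279 in WT and 11734 to 22645 in Chd8L+/- libraries. In each direction 1 of the 8 passed an unadjusted limma p of 0.05. That was near the share over all genes, 12.5% higher and 11.8% lower. Enterocyte markers had 0 of 12 positive and a median of -0.42, with 398071 to 937362 in WT and 334438 to 786896 in Chd8L+/- libraries. Epithelial markers had 3 of 9 positive (150073 to 254766 and 147961 to 236982). T cell markers had 3 of 9 tested genes positive (2176 to 4022 and 1647 to 3292) and B cell markers 0 of 9 (494 to 2329.7 and 258 to 4637). Myeloid markers had 10 of 10 positive and a median of 0.59 (1287 to 3343 and 1875 to 4056). Stromal and endothelial markers had 7 of 7 tested genes positive (10 listed) and a median of 1.76, at low levels of 56.9 to 430.2 in WT and 92.9 to 2071 in Chd8L+/- libraries, and Col1a2, Col3a1, Lum and Pdgfra were at 0 in at least 1 WT library. The part of these cells in the repair gene differences was not tested.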

How the data were processed

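Poly(A) RNA of gut epithelial cells from 12 mice was read by the authors on a NextSeq (75 bases, single end), mapped to mm10 with Tophat2 (release 2.0.12) and put through the DESeq2 pipeline. The authors deposited a signal for every gene in every library, namely reads scaled by the size factor of that library. How reads were counted, on which annotation and whether by strand is not given in the sources used here. All values were whole multiples of what 1 read is worth in their library, and 100% came out whole (within 0.1), so reads were recovered. In WT replicates 3 and 4 that worth is close to 1 (1.01 and 0.992). Totals were between 15691662 and 20761315 reads per library, and genes with few reads carry more counting error.

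Genotypes were compared over all 12 libraries with limma 3.58.1 (R 4.3.3; lmFit, then eBayes with a trend) after log2(value + 1), in the 12808 genes with a mean of at least 10, with Benjamini-Hochberg adjustment and a threshold of 0.05. A count model written for raw counts was not the main test, as the values are normalized. The p-values measure the spread between these mice. The members and the gene lists were chosen with earlier results of these data known. No list was therefore tested, and no p of the genotype comparison was adjusted over a list alone. Tests of the correlations within Chd8L+/- libraries were not planned, and their exact permutation p was adjusted over the 9 repair genes or over their 36 pairs. The alternatives were pseudocounts of 0.5 and 5, the filter dropped or set at 10 in every library, quantile normalized values, DESeq2 1.42.0 and edgeR 4.0.16 on recovered reads, a block for the letter in the library name or for the replicate number, removal of length and GC trends, and each library left out. Without WT replicate 2, edgeR, DESeq2 and the length and GC trends were added after the values were seen, as were the differences within letters. The fits were tested on simulated data. Exact tests used scipy 1.17.1.

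Named genes are the 9 members, the 3 tested genes with the smallest limma p in each list of other repair genes, the 10 other genes (mean of at least 50) most like the members, Mki67, Pcna and Chd8. Of these, 1 gene is not reported here. Positions, lengths and overlaps come from GENCODE M21 on GRCm38 (14050 names matched by symbol and 92 by synonym), which may not be the authors' annotation, and promoters from RefSeq on GRCm38.p6.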

Additional observations from a re-analysis of the deposited data

Results flagged for a closer look

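Of 66 groups of values tested for a library that stands apart, 3 were picked out, where chance gives about 3.3. None was in the 9 repair genes. In Chd8L+/- replicate 7, Parp1 was low at 8.50 on the log2(normalized count + 1) scale, against 9.22 to 9.76 in the other Chd8L+/- libraries. In the same library Rad50 was low at 8.09, against 8.59 to 8.76. In WT replicate 2, Pms1 was high at 6.17, against 5.26 to 5.41 in the other WT libraries.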

How the results depend on the processing

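The median log2 fold change of the 9 repair genes stayed between 0.93 and 1.47 over 25 alternatives, and no repair gene changed sign in any of them. With all libraries, the count of repair genes past the threshold was 0 by limma without a block, 3 by DESeq2 and 2 by limma with the letter block. Leaving out 1 library gave between 0 and 9 repair genes past the threshold and between 0 and 3533 of all genes. The 9 came without WT replicate 2, and without any other library it was 0 of 9 and at most 8 of all genes. Without WT replicate 2 the count was also 9 by edgeR, by DESeq2 and with the length and GC trends removed, with 3369, 4112 and 3684 of all genes. The count of all genes was 3 by limma (0 higher and 3 lower), 5 by edgeR, 811 by DESeq2 (231 higher and 580 lower), 451 with the letter block (175 higher and 276 lower), 0 with the length and GC trends removed, and 3533 without WT replicate 2 (1789 higher and 1744 lower). The cause was not tested.

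Libraries of the genotypes with the same replicate number showed no common deviation (correlations of 0.19, -0.34, -0.13, -0.17 and -0.23 for replicate numbers 1 to 5). For number 1 alone the same-numbered library was the closest of the Chd8L+/- libraries. No label says whether the replicate numbers pair the mice, and these correlations cannot exclude it. With the replicate block, 0 repair genes and 0 of all genes passed, and the median log2 fold change of the repair genes was 1.15.

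The exact permutation p of Fancd2 passed 0.05 in 11 of 14 alternatives and that of Rad54l in 7 of 14. Fanci had no value with at least 10 in every library. Reads on Fanci were as few as 4 in a library, where counting error is large.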
